A study of Mus musculus with 2 samples.

Results

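The 7 genes described here make up the core of MHC class II antigen presentation in mouse islets, out of 31053 genes counted in each library. They were taken by symbol: the chain genes H2-Aa, H2-Ab1 and H2-Eb1, the invariant chain gene Cd74, the transactivator gene Ciita, and the peptide-loading genes H2-DMa and H2-DMb1. All 7 symbols were found once in the feature list, and each had at least 1 UMI (unique molecular identifier, the tag of a single captured transcript) in both libraries. Male C57/B6 mice of 16 weeks gave the islets, which were dispersed into single cells after pooling over 4 mice per group. The labels name no diet for WT mice, and the study's methods give standard chow for all mice outside the high-fat group, while HFD mice had been fed a diet with 60% of its calories as fat for 10 weeks from 6 weeks of age. Each group was 1 library, so diet, islet preparation and library cannot be told apart, no test was possible, and every interval below is a 95% interval that covers counting error only.

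MHC class II molecules are pairs of an α and a β chain that carry peptides to the surface of antigen-presenting cells, where CD4 T cells read them. The invariant chain, encoded by Cd74, holds the empty groove while the molecule travels to endosomes, and the H2-DM heterodimer then exchanges its last fragment for peptide. Transcription of all of these genes depends on CIITA, a coactivator without DNA binding of its own that docks on factors bound to the X and Y boxes of their promoters. Macrophages resident in islets are known to carry class II, and β cells are not professional antigen-presenting cells.

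The X box half-site AGCAAC (reverse complement GTTGCT) and the Y box core ATTGG (reverse complement CCAAT) were searched on both strands in the 250 bases before each RefSeq start in the GRCm38.p6 build. Of the 7 genes, 4 had a promoter entry, 5 entries in all. The half-site was held by 12.2% of 32851 mouse promoters of this length, the Y core by 33.8% and both by 4.31%. The H2-Eb1 and H2-Aa promoters are shown because they are the entries of chain genes, the most abundant products of the set beside Cd74. They are the 120 bases up to the start site on the strand of the gene, at chr17:34305747-34305866 (plus strand) for H2-Eb1 and chr17:34287824-34287943 (minus strand) for H2-Aa, with the searched letters in capitals.
H2-Eb1: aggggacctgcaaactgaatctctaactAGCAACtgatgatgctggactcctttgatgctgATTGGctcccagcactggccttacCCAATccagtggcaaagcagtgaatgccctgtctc
H2-Aa: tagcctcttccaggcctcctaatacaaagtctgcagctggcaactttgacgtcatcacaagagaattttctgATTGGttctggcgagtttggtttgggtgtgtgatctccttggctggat
In H2-Eb1 the half-site began 92 bases before the start and the Y core 59 bases before it, with a further CCAAT at 35 bases. H2-Aa held the Y core alone, 48 bases before its start, and so did H2-DMb1, at 61 bases. H2-DMa has a pair of start sites in RefSeq, neither with the half-site, and 1 of them had the Y core 198 bases before it. Both letter strings were also present before the starts of Rfx5, H2-Oa, H2-Ob and H2-Eb2, 4 of the 10 other pathway genes with an entry. These matches are letters only and were not tested as binding sites.

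Barcodes with at least 500 genes and at most 20% mitochondrial UMIs were kept, with no maximum of UMIs, and those with the highest doublet scores were left out. This left 2498 of 3895 WT barcodes and 6672 of 8951 HFD barcodes, with medians of 24030.5 and 10919 UMIs per cell. The libraries shared 9 barcodes, 3 of them among the kept cells. Cells were clustered without the 7 genes or their pathway, and clusters were named from markers, so a name such as macrophage-like rests on other genes. The β-like cells were 2003 in WT and 5857 in HFD, and 40 WT and 45 HFD cells were macrophage-like. Macrophage-like cells were shallower in HFD, the median cell holding 2050 UMIs there and 5016.5 in WT, from 717 and 1323.5 genes.

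Class II transcripts lay in a small set of cells. The sum of H2-Aa, H2-Ab1, H2-Eb1 and Cd74 (called the 4-gene sum below) counted 22363 UMIs in WT and 12624 in HFD. Macrophage-like cells held 80.5% of these in WT (exact Clopper-Pearson interval 80.0 to 81.0; 17997 UMIs) and 66.5% in HFD (65.7 to 67.4; 8400 UMIs). With at least 1000 genes per cell the HFD share was 24.4%, since only 3 HFD macrophage-like cells then remained, and the WT share 79.6%. At 500 genes or more, macrophage-like cells were 1.60% of the cells and 0.301% of all UMIs in WT, and 0.674% of the cells and 0.112% of all UMIs in HFD. All immune clusters together held 97.7% of the 4-gene sum in WT and 92.4% in HFD. The β-like cells, 80.2% of the cells in WT and 87.8% in HFD, held 0.841% in WT (0.725 to 0.969) and 6.65% in HFD (6.22 to 7.09).

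**Figure D1:**
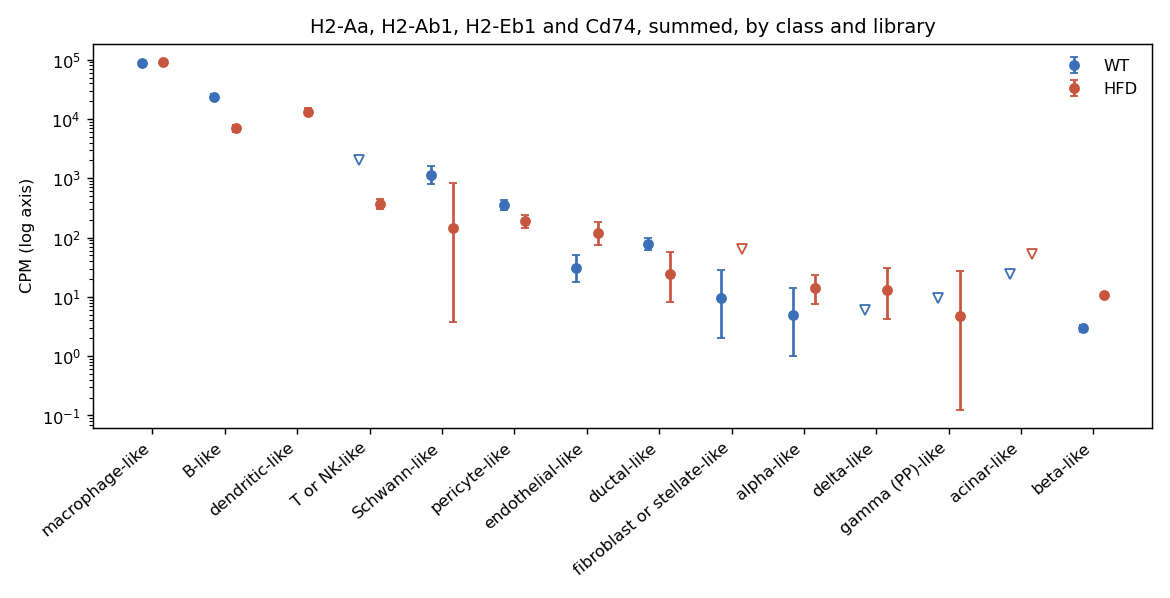
Level of H2-Aa, H2-Ab1, H2-Eb1 and Cd74 summed, as CPM of the class (log axis), for each class of cells in the WT (blue) and HFD (red) libraries; bars are exact Poisson 95% intervals and open triangles mark the limit of 3 counts where no UMI was seen. Macrophage-like cells sit at 87894 and 91480 CPM and β-like cells, at the right, between 2.96 and 10.6 CPM.

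Among named classes, macrophage-like, B-like and dendritic-like cells stood at the top of the order of levels. On the scale of CPM, the count scaled to the total UMIs of the same class and library, the 4-gene sum was 87894 in WT and 91480 in HFD macrophage-like cells. Unnamed cells, which were not all leukocytes, had 5383 in WT and 29188 in HFD. Of the 56 WT unnamed cells, 37 lay in a cluster that mixed pericyte and endothelial genes (Rgs5, Esm1 and Flt1). It held 594501 of their 675296 UMIs, at 146.3 CPM of the 4-gene sum. Only 4 of the 31 HFD unnamed cells lay in it, so the WT and HFD values rest on unlike mixes of clusters. The unnamed leukocyte clusters with chain UMIs are described below. B-like cells had 23300 in 6 WT cells (20754 to 26072) and 7010 in 10 HFD cells (6118 to 7995). Cells named dendritic-like, found in HFD only, had 13172 in 8 cells (11492 to 15028), above the B-like cells of that library. This class leaves out an unnamed cluster of 8 WT and 18 HFD cells that scored nearest the dendritic list. That cluster had 62380 CPM in WT and 55875 in HFD, so the naming does not show that WT lacked dendritic cells. T or NK-like cells had 367.4 CPM in HFD (302.8 to 441.7; 159 cells), and the 1 WT cell of this class had no UMI, which allows up to 2051 CPM. The HFD value came from 113 UMIs in 11 of the 159 cells, 86 of them Cd74, and 5 cells had a chain UMI. Schwann-like cells had 1145 CPM in WT (797.3 to 1592), all in 3 of 7 cells that also carried UMIs of macrophage genes, and 1 UMI in HFD. Pericyte-like cells had 360.6 CPM in WT and 186.8 in HFD, ductal-like cells 77.8 and 24.8, and endothelial-like cells 30.8 and 120.6. Fibroblast or stellate-like cells had 3 UMIs in WT and none in HFD, and acinar-like cells had none. Among hormone classes, α-like cells had 4.92 and 14.0 CPM, and δ-like cells had 0 and 13.1. The Poisson intervals of α-like, δ-like and γ-like cells overlapped one another within each library, so these neighbours did not differ beyond counting error.

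Every macrophage-like cell carried class II. Before any correction for depth, 40 of 40 WT and 45 of 45 HFD cells had a UMI of H2-Aa, H2-Ab1 or H2-Eb1. When each cell was thinned to 2000 UMIs, 38 of 38 WT cells (100%, 90.7 to 100) and 25 of 25 HFD cells (100%, 86.3 to 100) were still positive, 2 WT and 20 HFD cells being too shallow to enter. The thinned cells held between 4 and 161 chain UMIs in WT, with a median of 83, and between 47 and 121 in HFD, with a median of 93. In β-like cells, taken as the class that should lack these genes, 9 of 1916 thinned WT cells (0.470%, 0.215 to 0.890) and 26 of 5845 thinned HFD cells (0.445%, 0.291 to 0.651) had a chain UMI. Unthinned, the β-like shares were 3.69% at a median of 28688 UMIs in WT and 2.19% at 11901 UMIs in HFD. The share in macrophage-like cells lay far above that in β-like cells in both libraries, and the thinned β-like shares did not differ beyond counting error.

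Among the chains, H2-Aa encodes the α chain of I-A. In single macrophage-like cells it ranged from 8.0 to 286.2 UMIs per 10000 UMIs of the cell in WT, with a median of 139.8, and from 61.7 to 205.1 in HFD, with a median of 144.8. H2-Ab1, the β chain of I-A, had medians of 150.6 in WT and 157.8 in HFD, and H2-Eb1, the β chain of I-E, 142.0 and 129.4. No macrophage-like cell of either library was at 0 for any of the 3 chains. The HFD cells lay inside the range of the WT cells for all 3 genes.

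Cd74 was the most abundant of the set as a share of UMIs. Its share ran from 80.0 to 1282 UMIs per 10000 in WT cells, with a median of 477.8, and from 278.4 to 665.7 in HFD cells, with a median of 482.1. Cd74 made up 51.9% of the 4-gene sum in WT macrophage-like cells (51.2 to 52.7) and 52.2% in HFD (51.1 to 53.3). The intervals of the WT and HFD shares overlapped for each of the 4 genes.

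**Figure D2:**
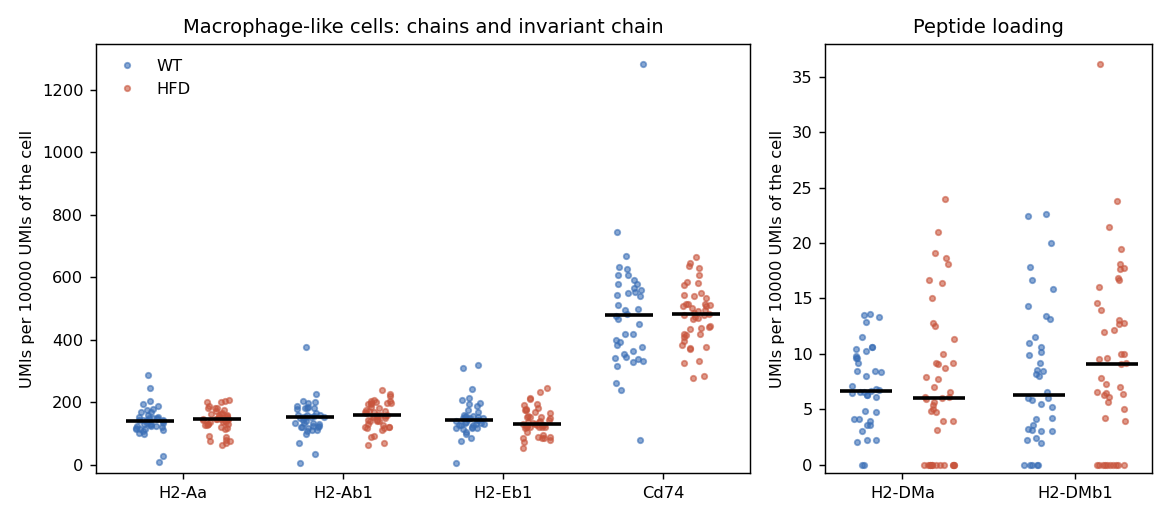
UMIs of each gene per 10000 UMIs of the cell (linear axes) in the 40 WT (blue) and 45 HFD (red) macrophage-like cells; each point is a cell and black bars are medians over cells, which are not replicates. The HFD cells of H2-Aa, H2-Ab1, H2-Eb1 and Cd74 fall within the wider range of the WT cells.

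Summed over macrophage-like cells, H2-Aa stood at 13684 CPM in WT and 14245 in HFD, an HFD to WT ratio of 1.04 (exact conditional interval 0.974 to 1.11). H2-Ab1 stood at 14300 and 15748 CPM, a ratio of 1.10 (1.03 to 1.17), and H2-Eb1 at 14261 and 13744 CPM, a ratio of 0.964 (0.901 to 1.03). Cd74 stood at 45649 and 47744 CPM, a ratio of 1.05 (1.01 to 1.08). The ratio of the 4-gene sum was 1.04 (1.01 to 1.07), and it turned to 0.936 with TMM factors and to 0.994 as a mean over cells. These ratios are smaller than the shift another scaling brought, so no direction is given for the chains or for Cd74. Of the 6 members of the set that reached 20 UMIs, 0 passed a 1.5-fold ratio in either direction, against 31.4% of the 1514 genes of the same class with that many UMIs. The 6 members held between 216 and 13731 UMIs, while the background took any gene from 20 UMIs up. The comparison was not matched for abundance and does not show that class II genes were unusually stable.

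Macrophage-like cells formed 2 clusters of unlike makeup. The first held 32 WT and 20 HFD cells and was led by Apoe, C1qb and Ccl4, and the second held 8 WT and 25 HFD cells and was led by Ccl4, Apoe and Cxcl2. The 4-gene sum was 92636 CPM in WT and 88967 in HFD in the first, and 72146 and 93865 in the second. The lowest of these 4 values therefore came from the 8 WT cells of the second cluster. Of markers of other cells, β markers made up 7160 CPM in WT and 18285 in HFD macrophage-like cells, with 5 and 7 of 8 markers seen, and acinar markers 942.6 and 3126, with all 6 seen. The cell with the lowest β marker share had 33.0 UMIs per 10000 in WT and 76.6 in HFD. The defining T or NK, endothelial and fibroblast markers were at 0 in both libraries. The part of these other markers in the class II ratios was not tested.

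Ciita was near the limit of detection. In macrophage-like cells it had 11 UMIs in 10 of 40 WT cells, 53.7 CPM (26.8 to 96.1), and 0 UMIs in 45 HFD cells, which allows up to 32.7 CPM. All 11 WT UMIs came from the first macrophage-like cluster. The exact conditional interval of the HFD to WT ratio was 0 to 0.888, which excluded 1, on 11 UMIs in all. Over all kept cells Ciita counted 15 UMIs in WT and 2 in HFD.

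The peptide-loading genes were less abundant and did not differ beyond counting error. H2-DMa, the α chain of the H2-DM heterodimer, stood at 717.9 CPM in WT and 751.4 in HFD macrophage-like cells, a ratio of 1.05 (0.775 to 1.4), with UMIs in 38 of 40 and 32 of 45 cells. H2-DMb1, a β chain of H2-DM, stood at 771.6 and 947.5 CPM, a ratio of 1.23 (0.934 to 1.61), with UMIs in 35 cells of each library. H2-DMb1 has a near copy, H2-DMb2, whose counts may take some of its reads: H2-DMb2 had 1 UMI in macrophage-like cells of each library.

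The wider pathway, from a list of 14 genes of which 13 were found, was thinly counted in macrophage-like cells. Only 5 reached 20 UMIs: 0 were 1.5-fold higher in HFD and 1 was lower, against 14.2% and 17.2% of all genes of the class. Ctss encodes cathepsin S, which cleaves the invariant chain, and was at 4776 CPM in WT and 4890 in HFD, a ratio of 1.02 (0.913 to 1.15). Ctsl, encoding cathepsin L, was at 200.2 and 119.8 CPM on 41 and 11 UMIs, a ratio of 0.598 whose interval of 0.277 to 1.19 included 1. Cd83, which opposes the turnover of class II at the surface, was at 1675 and 1144 CPM, a ratio of 0.683 (0.543 to 0.852), inside 1.5-fold. Lgmn and Ctsb, both encoding endosomal proteases, had ratios of 0.840 and 1.05. H2-Oa and H2-Ob, the subunits of the H2-DO modulator of peptide loading, had 7 and 8 UMIs in WT and 5 each in HFD.

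Genes that act beside class II included some past 1.5-fold. Cd86, a ligand of the costimulatory receptor CD28, was at 332.1 CPM in WT and 599.0 in HFD, a ratio of 1.80 (1.24 to 2.61), with UMIs in 27 of 40 and 32 of 45 cells. Cd40 was at 136.7 and 108.9 CPM, a ratio of 0.796 (0.345 to 1.69), and the other 4 genes of the costimulation list had under 20 UMIs. In the interferon-gamma list, 5 of 11 genes had 20 UMIs, 0 were higher and Cxcl10, encoding an inducible chemokine, was lower, at 1411 against 707.9 CPM, a ratio of 0.502 (0.377 to 0.658). The receptor genes Ifngr1 and Ifngr2 had ratios of 1.21 and 1.34 on 37 and 32 UMIs, with intervals that included 1. Of the 5 macrophage state genes with enough UMIs, 4 were past 1.5-fold lower (Cx3cr1, Ccr2, Trem2 and Cd9). Trem2 was at 464.0 against 272.3 CPM, and the intervals of Ccr2 and Cd9 included 1. Over all genes of the class with 20 UMIs, 14.2% were 1.5-fold or more higher and 17.2% lower. The median ratio was 1.05 for the class II genes, 0.840 for the wider pathway, 0.496 for the state genes and 0.982 for all genes of the class. Whether these lists differ from one another was not tested.

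**Figure D3:**
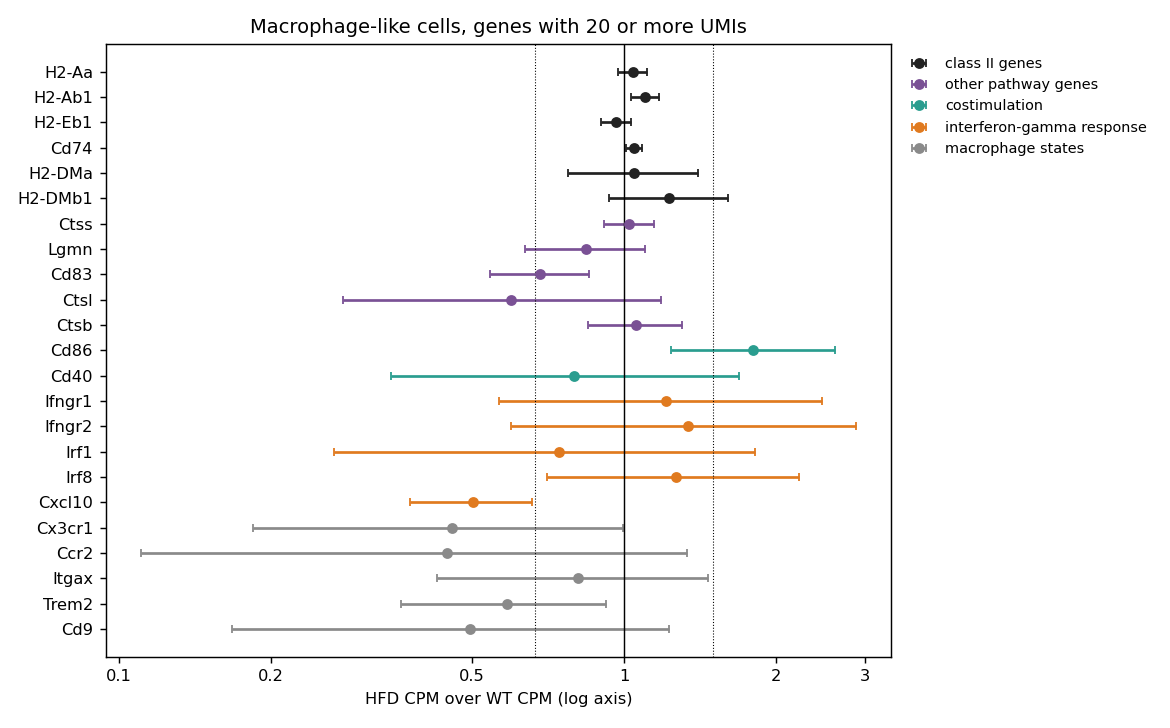
HFD to WT ratio of CPM in macrophage-like cells (log axis) for genes with 20 or more UMIs, coloured by list; bars are exact conditional 95% intervals, the solid line marks 1 and the dotted lines 1.5-fold. The 6 class II genes at the top lie between 0.964 and 1.23, and Cd86 at 1.80 lies above the upper dotted line.

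Other leukocytes carried class II at lower levels or stayed unnamed. A cluster of 8 WT and 18 HFD cells was led by Lyz2, Tyrobp and Il1b. It scored nearest the dendritic list, with 6 of 8 dendritic markers found. It stayed unnamed because its top 10 genes held 1 marker of another class, the macrophage marker Lyz2, and 0 dendritic markers. Of its 26 cells, 17 had a UMI of Lyz2, 6 of Flt3, 6 of Cd209a, 4 of Xcr1, 4 of Clec9a and 1 of C1qa. Its 4-gene sum was 62380 CPM in WT and 55875 in HFD, the highest after the macrophage-like clusters, with chain UMIs in 7 of 8 and 17 of 18 cells. H2-DMa was at 915.0 CPM in WT and 829.9 in HFD in this cluster, and Ciita at 70.4 and 22.4. Together with other unnamed cells it accounted for 16.3% of the 4-gene sum in WT and 21.5% in HFD. A further unnamed HFD cluster of 6 cells, led by Ly6d, Tyrobp and Plac8 and with Siglech among its top genes, had 25174 CPM and chain UMIs in 6 of 6 cells.

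B-like cells were few and mixed. Chain UMIs were present in 5 of 6 WT cells and 5 of 10 HFD cells. Their cluster was led by Igkc, Ighm and Jchain, the last a gene of antibody secretion. Of its 16 cells, 10 had a UMI of Igkc, 9 of Cd79a and 5 of Ms4a1. The T markers Cd3d and Trbc2 had UMIs in 5 and 3 of the 16. How far cells of another kind enter the WT and HFD levels of this class was not tested. Cd74 stood at 12493 CPM in WT and 4736 in HFD. Of the 8 dendritic-like HFD cells, led by Ccl5, Epsti1 and Ccr7, all 8 had chain UMIs, with H2-Eb1 at 3874 CPM and H2-Ab1 at 834.4. Ciita had no UMI in B-like or dendritic-like cells.

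In β-like cells the 4-gene sum was 188 UMIs in WT, or 2.96 CPM (exact Poisson interval 2.55 to 3.42), and 839 UMIs in HFD, or 10.6 CPM (9.93 to 11.4), a ratio of 3.59 (3.06 to 4.23). Cd74 was at 1.48 CPM in WT and 5.52 in HFD, H2-Eb1 at 0.583 and 1.94, H2-Aa at 0.552 and 1.75, and H2-Ab1 at 0.347 and 1.43. All 4 genes were above 1.5-fold higher in HFD, as were 4.24% of the 13502 genes with 20 UMIs in β-like cells. Another 7.82% of those genes were 1.5-fold or more lower, 12.1% being past it either way. As a share of the macrophage-like level of the same library, the sum was 0.00337% in WT and 0.0116% in HFD.

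The HFD excess sat in a handful of cells. Only 6 of 2003 WT and 21 of 5857 HFD β-like cells held 3 or more UMIs of the 4-gene sum, yet they carried 25.5% of its UMIs in WT and 76.0% in HFD. The highest WT cell had 20 UMIs and the highest HFD cell 209. Without these cells the sum was 2.21 CPM in WT and 2.56 in HFD, a ratio of 1.16 (0.927 to 1.44). These cells were picked by the count compared, and WT cells were deeper, so this ratio describes where the UMIs lay and does not show that the other cells were alike. A macrophage UMI (of C1qb, C1qc, Csf1r, Lyz2, Tyrobp or Ctss) was present in 5 of the 6 WT and 13 of the 21 HFD cells, compared with 1.90% of the other WT and 1.10% of the other HFD β-like cells. The 21 HFD cells had between 1747 and 36695 UMIs, with a median of 13794, and insulin genes made up a median of 5397 UMIs per 10000 in them. Without all β-like cells that carried a macrophage UMI, the sum was 2.25 CPM in WT and 3.84 in HFD, a ratio of 1.70 (1.39 to 2.10). This choice was made after seeing the data and does not use class II counts, and the ratio was still beyond counting error. It left in 1 WT and 8 HFD cells that held 3 or more class II UMIs and no macrophage UMI. Of the UMIs in cells of 3 or more, those with a macrophage UMI held 44 of 48 in WT and 537 of 638 in HFD. How far the remaining such cells make up the ratio of 1.70 was not tested. Whether a second cell in the droplet accounts for the cells of 3 or more UMIs was not tested.

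**Figure D4:**
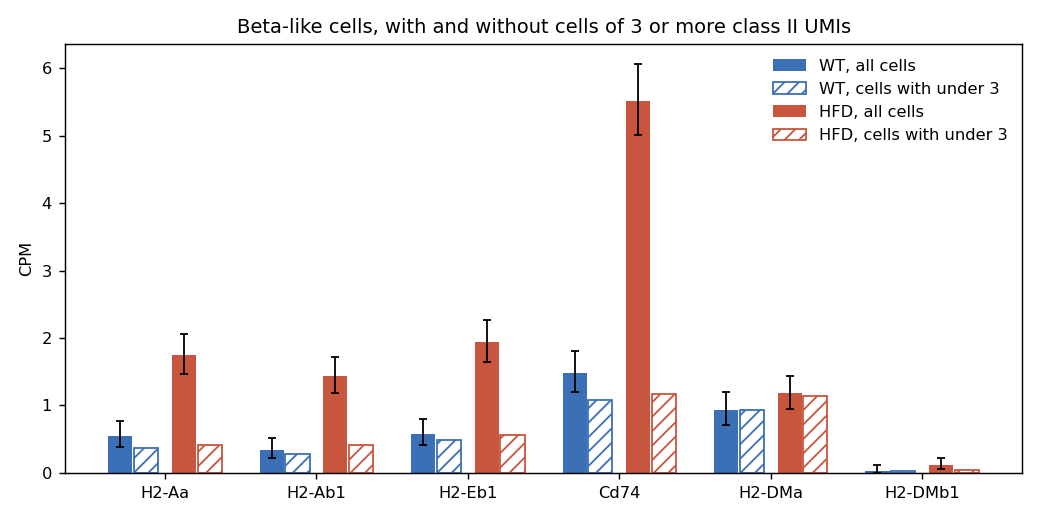
CPM of 6 class II genes in β-like cells (linear axis from 0), for all cells (filled bars, with exact Poisson 95% intervals) and for cells with under 3 UMIs of the 4-gene sum (hatched bars), WT in blue and HFD in red. Removing 6 WT and 21 HFD cells brings Cd74 from 5.52 to 1.17 CPM in HFD and from 1.48 to 1.08 in WT, and H2-DMa from 1.18 to 1.15 in HFD.

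Below 3 UMIs per cell, the proportions of the 4 genes were set beside those of macrophage-like cells. Cd74 made up 48.6% of the sum in those WT cells (40 to 57.2) and 45.8% in HFD (38.7 to 52.9), intervals that held the macrophage-like values of 51.9% and 52.2%. H2-Eb1 made up 22.1% in those WT cells (15.6 to 29.9) and 21.9% in HFD (16.4 to 28.3), and the HFD interval lay above that of HFD macrophage-like cells (14.3 to 15.8%). The intervals of H2-Aa and H2-Ab1 held the macrophage-like values in both libraries. Relative to macrophage-like cells of the same library, the cells under 3 UMIs held between 0.00199% and 0.00344% of the level of each of the 4 genes in WT, and between 0.00245% and 0.00408% in HFD. C1qb stood at 0.00174% and 0.00177% and Ctss at 0.00232% and 0.00234% on the same scale. These shares of the chains, Cd74, C1qb and Ctss lay within one order of magnitude. H2-DMb1 was at 0.00410% and 0.00403%, on 2 and 3 UMIs.

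H2-DMa did not follow that ratio. It had 59 UMIs in 55 WT β-like cells, 0.93 CPM (0.708 to 1.20), and 93 UMIs in 92 HFD cells, 1.18 CPM (0.952 to 1.44), a ratio of 1.27 (0.905 to 1.79). This was 0.130% of the macrophage-like level in WT and 0.157% in HFD. For each 100 UMIs of the 4-gene sum, WT β-like cells had 31.4 UMIs of H2-DMa (23.0 to 42.3) and WT macrophage-like cells 0.817 (0.690 to 0.961). In HFD the values were 11.1 (8.85 to 13.7) and 0.821 (0.639 to 1.04). H2-DMb1, its partner, had 2 UMIs in WT and 9 in HFD β-like cells. The H2-DMa gene model of the GENCODE annotation, chr17:34119541-34139101 on the plus strand in GRCm38, overlaps the 5′ part of Brd2, chr17:34112023-34122634 on the minus strand. It also overlaps CR974462.3 on the plus strand, the strand of H2-DMa, and CR974462.4 and Gm20493 on the minus strand. Whether reads of any of these genes enter the count of H2-DMa was not tested.

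**Figure D5:**
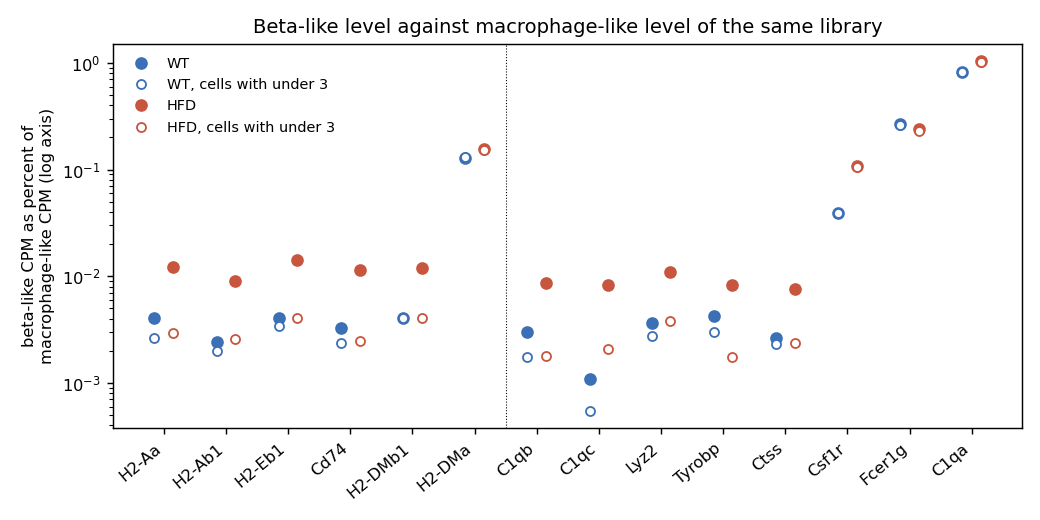
β-like CPM as a percent of the macrophage-like CPM of the same library (log axis), for class II genes to the left of the dotted line and macrophage genes to its right, over all β-like cells (filled) and over those with under 3 class II UMIs (open). The chains, Cd74, H2-DMb1, C1qb and Ctss lie between 0.001% and 0.02%, and H2-DMa, Csf1r, Fcer1g and C1qa lie above them.

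Some macrophage and B cell genes were likewise out of proportion in β-like cells. C1qa was at 44.0 CPM in WT and 51.8 in HFD, 0.812% and 1.03% of the macrophage-like level, whereas C1qb was at 0.189 and 0.431 CPM. Fcer1g was at 7.79 and 7.30 CPM, or 0.265% and 0.239%. Csf1r, among the genes used above to mark a macrophage UMI, was at 0.189 and 0.444 CPM, or 0.0387% and 0.107%. Of its 35 HFD UMIs, 34 lay in cells with under 3 UMIs of the 4-gene sum. Cd79a, a chain of the B cell receptor complex, was at 13.3 and 5.01 CPM with Cd79b at 0 and 2 UMIs. Igkc, an antibody light chain gene, had 14 UMIs in WT and 122 in HFD, 0.221 and 1.55 CPM, a ratio of 7.01 (4.02 to 13.2). C1qa, Fcer1g, Csf1r and H2-DMa thus gave another percent of the macrophage-like level than the chains did.

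The factors that CIITA docks on were present in β-like cells while Ciita was not. Ciita had 0 UMIs in β-like cells of both libraries, which allows up to 0.0473 CPM in WT and 0.0380 in HFD. Rfx5, Rfxap and Rfxank encode the subunits of the X box factor RFX. Rfx5 was at 6.67 CPM in WT and 7.23 in HFD, Rfxap at 12.9 and 14.3, and Rfxank at 2.63 and 1.93. This was not particular to β-like cells. In WT ductal-like cells Rfx5 was at 13.6 CPM, Rfxap at 45.7 and Rfxank at 15.6, with Ciita at 0 UMIs. In macrophage-like cells the same 3 genes had between 0 and 2 UMIs in each library, too few for a level.

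Among stromal and vascular classes, class II UMIs came from a few cells each. Endothelial-like cells had 16 UMIs of the 4-gene sum in WT, 30.8 CPM (17.6 to 50), and 21 in HFD, 120.6 CPM (74.7 to 184.3), a ratio of 3.92 (1.95 to 8.03), in 6 cells of each library. In this class 12% of genes were 1.5-fold or more higher and 21.6% lower, 33.6% in all. A single WT cell held 10 of the 16 UMIs and 3 HFD cells held 18 of the 21, and without them, cells again picked by the count compared, 6 and 3 UMIs remained, a ratio of 1.56 (0.252 to 7.28). The ratio depended on which cells entered the class: it was 6.46 at Leiden resolution 0.5 and 6.34 with at most 15000 UMIs per cell, and it turned to 0.898 at Leiden resolution 2 and with at most 10% mitochondrial UMIs.

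Pericyte-like cells had 102 UMIs in WT, 360.6 CPM (294.0 to 437.8), and 70 in HFD, 186.8 CPM (145.6 to 236.0), a ratio of 0.518 (0.376 to 0.709), where 15.1% of genes were 1.5-fold or more lower and 13.6% higher, 28.8% in all. Of these UMIs 93 lay in 3 of 34 WT cells and 67 in 5 of 71 HFD cells. A macrophage UMI was present in 2 of those 3 and 3 of those 5 cells, and the other cells of the class held 9 UMIs in WT and 3 in HFD.

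In ductal-like cells Cd74 dominated. The WT cells had 80 UMIs, 77.8 CPM (61.7 to 96.9), spread over 21 of 60 cells, and Cd74 made up 67 of the 80 UMIs, 83.8% (73.8 to 91.1), above its 51.9% in macrophage-like cells. Only 1 of the 8 ductal-like WT cells with 3 or more UMIs carried a macrophage UMI. The 33 HFD ductal-like cells had 5 UMIs in 3 cells, 24.8 CPM (8.04 to 57.8).

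Across 8 classes with at least 20 cells in each library, 16 points in all, the genes whose level followed the mean of H2-Aa, H2-Ab1, H2-Eb1 and Cd74 most closely were Ctss (Pearson r = 0.993), Fcer1g, Ccl4, C1qb, Bcl2a1b, Spi1, Tyrobp, Il1b, Cd52 and Ms4a7 (r = 0.981), out of 11230 genes. H2-DMb1 and H2-DMa had r = 0.978 and 0.971. The points share 2 libraries and differ in depth, and the macrophage-like pair stands far above the other points, so these values describe genes high in macrophage-like cells and give no order within the class.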

How the data were processed

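The deposited files held raw UMI counts per gene and barcode for 2 libraries, which the authors made against mm10 with Cell Ranger 3.0.2, per the file headers and the submitters' processing notes. The genes and lists were chosen with earlier results of these data known. Barcodes with under 500 genes or over 20% mitochondrial UMIs were left out. The threshold that Scrublet set itself marked 12 WT and 0 HFD barcodes and was judged not to have worked, so the highest scores were left out instead, 0.8% for each 1000 barcodes of a library (121 WT and 641 HFD barcodes, of which 102 and 625 had passed the other filters). Cells of both libraries were clustered together (scanpy v1.11.5, Leiden at resolution 1). A first round took all cells, and further rounds took the immune clusters and the clusters that were neither immune nor β-like. The 7 genes and their pathway were kept out of clustering and naming. The marker lists were set before clusters were named, and the scoring was chosen after clusters had been seen. It asked for at least 3 markers found in 10% of the cells, each also above a set level and relative to its median over clusters. No more markers of another class could be among the top 10 genes. Shallow clusters with no marker of their own among the top 10 also stayed unnamed. This last rule left unnamed the 6 HFD cells led by Ly6d, with 3 of 8 dendritic markers found.

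UMIs were summed per class and library and divided by all UMIs of the same cells (CPM). Sums carry exact Poisson intervals, shares exact Clopper-Pearson intervals (scipy v1.17.1) and ratios exact conditional intervals, all at 95%. A count of 0 is given the limit of 3 counts. Shares of cells were taken after thinning each cell to 2000 UMIs. The genes named are the 7 genes, all genes of the lists, and the 10 genes nearest by Pearson correlation of log2(CPM + 10) among genes with 200 UMIs. Leading genes of clusters, the genes that overlap H2-DMa and the marker genes of unnamed and B-like clusters were named after their values were seen. The TMM alternative used edgeR v4.0.16. Scripts were tested on simulated data.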

Additional observations from a re-analysis of the deposited data

Results flagged for a closer look

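In pericyte-like cells the HFD to WT ratio went the other way from macrophage-like cells: the 4-gene sum had a ratio of 0.518 against 1.04, and Cd74 a ratio of 0.523 against 1.05. The difference between the classes was not tested, since each class had 1 library per group. It rests on 3 WT and 5 HFD pericyte-like cells that held 93 of 102 and 67 of 70 UMIs, and the direction in macrophage-like cells changed with the scaling.

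Barcodes left out for holding under 500 genes carried class II at unlike rates in the 2 libraries. Of 531 such HFD barcodes with at most 20% mitochondrial UMIs, 64 held 3 or more UMIs of the 4-gene sum, 12.1% (9.41 to 15.1), compared with 6 of 286 WT barcodes, 2.10% (0.774 to 4.51). This was a signal in barcodes that no comparison above used. The intervals cover counting error only, and the difference between libraries was not tested over replicates.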

How the results depend on the processing

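Of the main results under other settings, 41 values stayed within their counting interval and direction, 18 moved and 5 turned, and of the values of single genes 97 stayed, 25 moved and 4 turned. No paired analysis was possible because each group is 1 library, and no replicate could be left out for the same reason. The macrophage-like 4-gene ratio turned to 0.936 with TMM factors, 0.994 as a mean over cells and 0.863 with at least 1000 genes per cell, which left 3 HFD cells. Cd74 turned to 0.940, 0.991 and 0.822 under the same settings, and H2-Ab1 to 0.990 with TMM factors. The ratio was 1.4 in a gate on 4 macrophage genes, 1.24 in that gate without C1qa and 1.01 with no barcode left out by doublet score. The gate on 4 genes took in mostly β-like cells through C1qa, and 9.60% of its WT and 9.41% of its HFD cells were positive. The share of class II UMIs in macrophage-like cells was 84.9% and 74.0% (WT and HFD) as a sum of shares per cell, 81.8% and 68.2% with at most 15000 UMIs per cell, 79.6% and 24.4% with at least 1000 genes, and 77.8% and 62.4% with no barcode left out by doublet score. The β-like ratio was 1.16 without cells of 3 or more class II UMIs, which were picked by the count compared, 1.70 without cells with a macrophage UMI, 4.28 with at most 10% mitochondrial UMIs and 3.0 with no barcode left out by doublet score. The endothelial-like ratio was 1.56 without cells of 3 or more class II UMIs, and it turned to 0.898 both with at most 10% mitochondrial UMIs and at Leiden resolution 2, which gave the same cells. It was higher, at 6.46, at Leiden resolution 0.5, 6.34 with at most 15000 UMIs per cell, 5.65 with no barcode left out by doublet score and 4.78 with at least 1000 genes. The gate without C1qa, the omission of cells with a macrophage UMI and that of endothelial-like cells with 3 or more UMIs were chosen after seeing the data. Apart from the number of cells, the cause of these changes was not tested.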

Other observations

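The 64 HFD barcodes with under 500 genes and 3 or more class II UMIs carried B cell genes for the most part. A UMI of Cd79a, Cd79b or Ms4a1 was present in 53 of them (82.8%), compared with 0 of the other 467 HFD barcodes under 500 genes, and a UMI of C1qb, C1qc or Csf1r in 7. None carried both, and 4 carried neither. The 53 barcodes had a median of 589 UMIs, and the 4-gene sum made up a median of 304.1 UMIs per 10000 of them. Summed over them, H2-Aa was at 4768 CPM and Cd74 at 16505 CPM. In WT, all 6 such barcodes carried C1qb, C1qc or Csf1r and 0 carried a B cell gene, and the median share of the 4-gene sum was 1430 UMIs per 10000. In HFD, 7 of the 64 barcodes had 400 or more genes. The kept HFD cells held 10 B-like cells, 5 of them with a chain UMI. The genes of these barcodes were chosen after their values were seen.

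The 102 WT and 625 HFD barcodes left out by doublet score also held class II. They had 762 UMIs of the 4-gene sum in 10 WT barcodes, 202.1 CPM, and 1127 UMIs in 57 HFD barcodes, 103.3 CPM, with up to 571 UMIs in 1 barcode. Barcodes left out for over 20% mitochondrial UMIs held 650 UMIs in 18 WT barcodes and 71 in 15 HFD barcodes.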
